A study of Mus musculus with 8 samples.

Results

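The contacts described here are those that the sequence of Chic1 on both sides of its deleted segment made with the X chromosome outside the interval turned in the 245kb-INV allele. The members were pairs of 5C primers on the X chromosome (mm9). One fragment had its midpoint within Chic1 (X:100551815-100591431) and did not overlap 100565598-100580662, and the other had its midpoint below 100378306 or above 100623270. This rule, which uses positions only, found 3878 of 269808 X-chromosomal pairs, of which 1452 belonged to the left flank of Chic1 and 2426 to the right flank, and 3324 were kept after primers with extreme totals were left out. In 5C, fragments of crosslinked chromatin that were near each other are ligated, and each product is read with one forward and one reverse primer at the ends of HindIII fragments.

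All 8 libraries were made from undifferentiated (day 0) male E14 mouse embryonic stem cells (strain 129/Ola), which carry a single X, and each of the 4 alleles had 2 libraries. The 245kb-INV allele was made with CRISPR-Cas9 and turns 245 kb of the X-inactivation center (Xic) that hold Chic1, its neighbors Nap1l2, Cdx4 and Tsx, and Linx. Linx-51kb-INV turns CTCF sites within Linx and leaves Chic1 with its own sites in its own position, so it served as the reference here, although it is not a wild-type allele. Chic1-4kbD lacks 2 of the 3 CTCF sites of Chic1 and Chic1-14kbD lacks all 3. The libraries of an allele are independent clones except in Chic1-14kbD, where both are replicates of 1 clone, so its spread leaves out that between clones. Wild-type libraries were not analysed here. Linx-51kb-INV and Chic1-4kbD share a prefix in their library titles, whereas the prefixes of 245kb-INV and of Chic1-14kbD are their own, so that prefix and allele cannot be told apart in any comparison with either of them.

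Chic1 encodes a protein with a cysteine-rich hydrophobic domain and lies in the topologically associating domain (TAD) that also holds the promoter of Tsix, the antisense repressor of Xist. A TAD is a stretch of chromosome whose parts meet each other more often than they meet the neighboring stretch. CTCF is a DNA-binding protein at which loop extrusion by cohesin halts, and pairs of CTCF sites that point toward each other often form loops. Downstream of Chic1 lie Xite, an enhancer of Tsix, and then Tsix itself. Beyond the TAD boundary lie the promoter of Xist, the noncoding RNA that silences the X, and the Xist activators Jpx, Ftx and Rlim.

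The left flank comprised the fragments REV543, FOR544 and REV545 (X:100556398-100565597) and the right flank REV553, FOR554, REV555, FOR556 and REV557 (X:100583703-100592173), all within the transcribed span of Chic1 except the end of REV557. FOR556 was left out for its low total. The HindIII sites that bound both flanks are shown because they set which sequence was counted, with the site in capitals, on the forward strand.
Left flank, outer edge (X:100556383-100556412): gctgtcctgattAAGCTTagtctagtttct
Left flank, inner edge (X:100565583-100565612): gcctgtaggggcAAGCTTaaggtgacaatc
Right flank, inner edge (X:100583688-100583717): ccactgaggtgcAAGCTTatcaaaaaactt
Right flank, outer edge (X:100592159-100592188): cactattacttgAAGCTTccttttaatgac

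Between the flanks lie 5 fragments (FOR546, REV548, FOR550, REV551 and FOR552) that the deletions touch. A core of the CTCF motif, CCANNAGNNGGC, was searched on both strands of all 1039 X-chromosomal fragments and was found in 205 of them (19.7%). It was present in 0 of 3 fragments of the left flank, in 1 of 5 of the right flank and in 3 of 5 between them. The matches in FOR546 and REV548 are shown because these fragments are removed in Chic1-14kbD, along with the match in the right flank, with the motif in capitals and in its own direction. A match describes the letters and is not evidence of a bound site.
FOR546, reverse strand (X:100566774-100566803): ccctgcaggCCAGAAGAGGGCatcaggatc
FOR546, reverse strand (X:100567167-100567196): gcctgtaggCCAGAAGAGGGCaccagatct
REV548, reverse strand (X:100569797-100569826): gcctgtgggCCAGAAGAGGGCaccagaacc
REV548, forward strand (X:100574652-100574681): taaaacagcCCAAAAGAAGGCacaagaatc
REV557, forward strand (X:100591307-100591336): acagctgtgCCAAAAGAAGGCtacctgcct

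Library totals ranged from 8184318 to 21046109 counts in 7 libraries and came to 1614282 in Chic1-14kbD replicate 2, whose values are the least precise. CPM are counts scaled to 1000000 kept X-chromosomal counts, or to 1000000 of all X-chromosomal counts for totals of single fragments. Counts of FOR546, REV548, FOR550 and REV551 fit the labels: they took 5.45 to 46.0 CPM in Chic1-14kbD against 1054 to 2368 CPM in 245kb-INV and Linx-51kb-INV. In Chic1-4kbD FOR546 took 293 and 329 CPM, whereas REV548, FOR550 and REV551 took 1381 to 1973 CPM. FOR552, which the larger deletion touches in part, kept 1868 and 1729 CPM in Chic1-14kbD. Its motif match (X:100581479-100581490) lies past the stretch excluded by the rule. Both Chic1-14kbD libraries differed from the rest across the whole map, as the shares of changed windows given below show. Their counts between the X chromosome and chromosome 5 were 58423 of a total of 21046109 and 2104 of a total of 1614282. In the other 6 libraries these counts were 142001 to 322412, of totals from 8184318 to 20934189. The low count of replicate 2 in part follows its depth. 5C counts carry no marker of the cell type, and no molecular identifiers were used, so reads are not independent molecules.

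Partners were grouped into 5 regions, namely far upstream (X:98831149-100177278), near upstream (X:100177279-100378305), Xite and Tsix (X:100623271-100656352), Xist to Rlim (X:100656353-101169723) and beyond Rlim (X:101178472-103425147). Because contacts fall with distance, each summed count was also divided by an expected count, read from how contacts fall with distance in the same library, with positions corrected for the inversion or the deletion. This correction matters most in 245kb-INV. There the left flank lies 61.5 kb from the left edge of the interval and 183 kb from the right edge, against 181 and 63.7 kb in Linx-51kb-INV, and the right flank lies 34.0 and 211 kb from these edges against 209 and 36.3 kb. Alleles were compared on the observed over expected scale with edgeR's quasi-likelihood test and Benjamini-Hochberg adjustment over all pairs of regions on the map.

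In Linx-51kb-INV, Chic1 met Xite and Tsix more often than distance predicts and the regions far upstream and from Xist to Rlim less often. There the log2 observed over expected of the right flank was 1.14 and 1.18 with Xite and Tsix, 0.96 and 0.39 near upstream, -0.66 and -0.64 far upstream, and -0.87 and -0.70 with Xist to Rlim. The left flank of Linx-51kb-INV had lower values in all 5 regions, with 0.49 and 0.82 at Xite and Tsix and -1.37 and -1.16 from Xist to Rlim. The excess of the right flank with Xite and Tsix was not particular to Linx-51kb-INV. It was 1.09 and 1.07 in Chic1-4kbD, 2.13 and 2.26 in 245kb-INV, and 0.38 and -0.14 in Chic1-14kbD. Within the right flank the fragment next to the deleted segment, REV553, had the highest downstream values of the flank in all 8 libraries, from 0.46 to 0.83 in the 6 outside Chic1-14kbD and -0.23 and -0.80 in Chic1-14kbD, with the dominant pairs described below included. Its total was also the highest of the flank in all 8 libraries, at 3291 to 4692 CPM against 1526 to 3931 CPM for the other kept fragments. The expected count makes no correction for the yield of a primer, so these ranks of fragments and flanks cannot be told apart from yield.

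**Figure D1:**
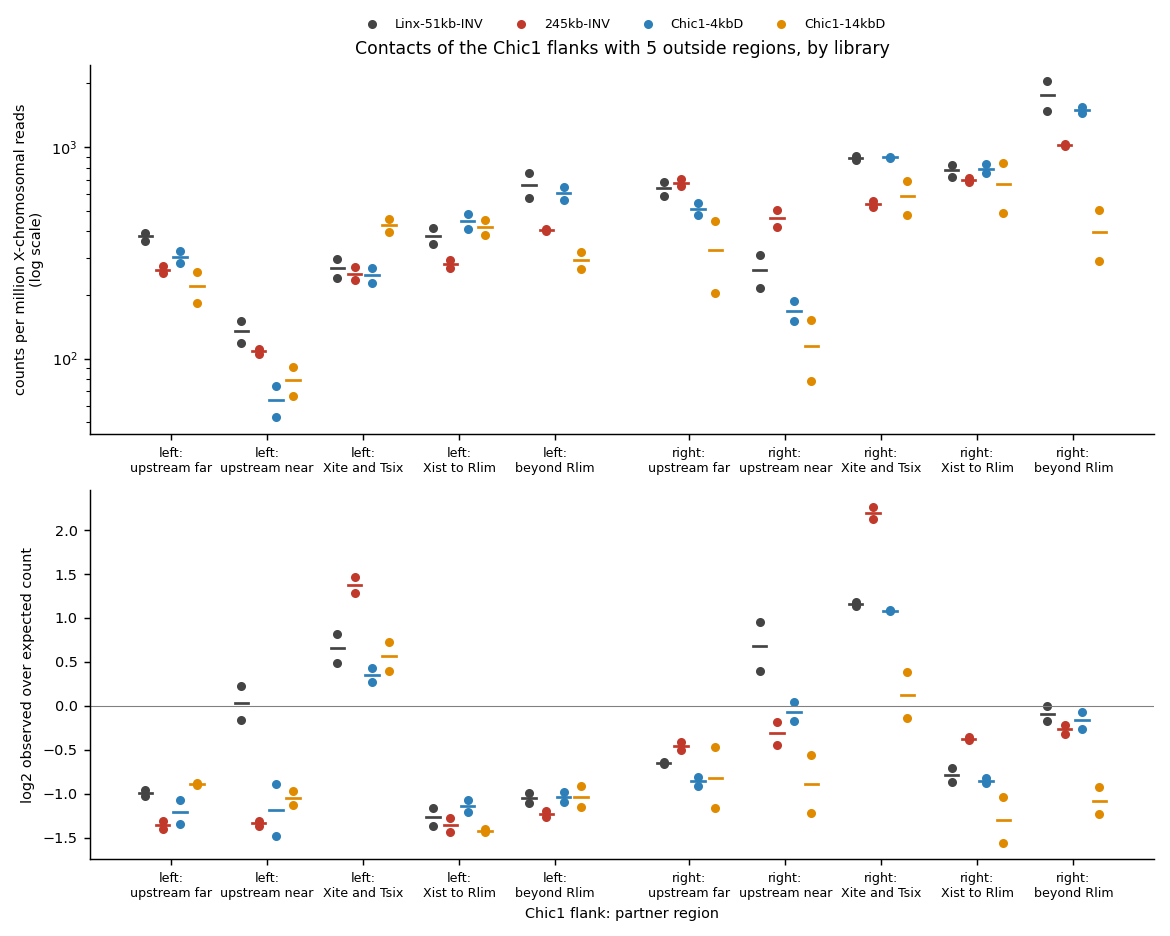
Contacts of the left and right Chic1 flanks with the 5 outside regions, as CPM (upper panel, log scale) and as log2 observed over expected counts (lower panel), with 1 point per library and a bar at the mean of the 2 libraries of an allele. With Xite and Tsix the right flank of 245kb-INV lies below Linx-51kb-INV in CPM (523 and 558 against 911 and 869.5) and above all other alleles after correction for distance (2.13 and 2.26).

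Whether loss of 2 of the 3 CTCF sites alters the outside contacts of Chic1 was addressed by Chic1-4kbD against Linx-51kb-INV, the comparison within 1 title prefix. Contacts of the left flank with the near upstream region were lower than in Linx-51kb-INV, and contacts with Xite and Tsix did not pass the test. The log2 observed over expected of the left flank near upstream was -0.88 and -1.49 in Chic1-4kbD and 0.22 and -0.16 in Linx-51kb-INV. In 245kb-INV, which keeps the Chic1 sites, it was -1.31 and -1.36. Whether the reference is high there or the deletion low cannot be told from this comparison. Near upstream, the left flank had 74.5 and 52.9 CPM in Chic1-4kbD and 150.5 and 119 CPM in Linx-51kb-INV. The groups did not overlap, and the log2 fold change in observed over expected contacts was -1.20 ± 0.29 (SE, n = 2 libraries per allele, edgeR adjusted p = 0.0189). The call was lost without Chic1-4kbD replicate 2 (-0.93, adjusted p = 0.169) or without Linx-51kb-INV replicate 1 (-0.99, adjusted p = 0.167), and also with library size (-1.08, adjusted p = 0.0888) or TMM factors (-1.02, adjusted p = 0.0716) in place of the distance decay. It was 1 of 10 regions of the flanks that passed, against 14.3% of the 70 pairs of regions on the map. These 70 pairs include pairs with the deleted segment and coarser sums of the same counts, among them those of both flanks together. They are therefore no independent background in any comparison.

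The right flank also had lower values near upstream, with 149.9 and 188 CPM in Chic1-4kbD and 309.7 and 216 CPM in Linx-51kb-INV, but this difference did not pass the test (log2 fold change -0.77 ± 0.26, edgeR adjusted p = 0.072). It passed in the fit without single dominant pairs, described below (-0.77, adjusted p = 0.0108), although no dominant pair lies there and its counts were the same in both fits, so this is no effect of pairs in that region. It also passed in edgeR with expected counts scaled by the totals of the partner primers (-0.91, adjusted p = 0.0422). It did not pass with library size (-0.64, adjusted p = 0.349) or TMM factors (-0.60, adjusted p = 0.298). With Xite and Tsix the right flank had 902 and 892 CPM against 911 and 869.5 CPM, and the log2 fold change was -0.08 ± 0.15 (edgeR adjusted p = 0.743). Taking both flanks and all regions of a side together, Chic1-4kbD differed from Linx-51kb-INV by -0.36 ± 0.14 upstream (adjusted p = 0.102) and by -0.05 ± 0.08 downstream (adjusted p = 0.715), both on the log2 scale and in edgeR. None of 84 windows of 100 kb passed, of 86 that hold a fragment, and 0.413% of all 1211 pairs of windows did. At an unadjusted p under 0.05 edgeR counted 4 of the 84 and 78 of all 1211 pairs of windows. DESeq2 counted 0 of the 84 at the adjusted threshold.

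**Figure D2:**
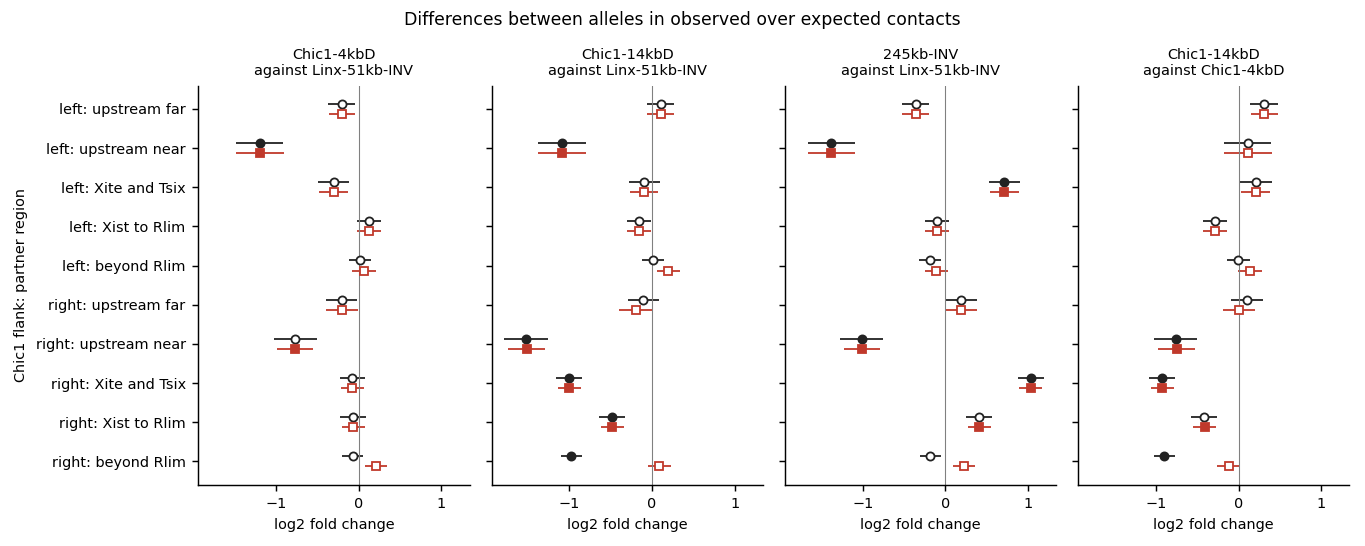
Log2 fold changes in observed over expected contacts of each flank with each outside region in the 4 comparisons, with bars for the standard error. Black circles use all fragment pairs, red squares leave out single dominant pairs, and filled symbols have an adjusted p under 0.05. Leaving them out removes the fall beyond Rlim in Chic1-14kbD (-0.98 against 0.09); the right flank has no dominant pair with Xite and Tsix or near upstream, where the counts are the same in both fits, so those points are no test of the pairs.

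Removal of all 3 sites in Chic1-14kbD was compared with the same Linx-51kb-INV libraries, so both deletions share their reference. Corrected for distance, contacts of the right flank fell with Xite and Tsix, from Xist to Rlim, beyond Rlim and near upstream, and those of the left flank fell near upstream, the only one of its 5 regions that passed. With Xite and Tsix the right flank had 695 and 477 CPM in Chic1-14kbD against 911 and 869.5 CPM in Linx-51kb-INV. Corrected for distance the values were 0.38 and -0.14 against 1.14 and 1.18 on the log2 scale, and both libraries of the deletion lay below all 6 others. The log2 fold change was -1.01 ± 0.16 (SE, n = 2 libraries per allele, edgeR adjusted p = 0.000202), and it passed without any single library (-1.30 to -0.78).

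For the left flank no difference passed there. It had 396 and 459 CPM with Xite and Tsix in Chic1-14kbD against 241 and 295 CPM in Linx-51kb-INV, and the deletion brings it from 63.7 to 49.6 kb from the right edge. Corrected for that distance the log2 fold change was -0.10 ± 0.19 (edgeR adjusted p = 0.703), and with library size in place of the decay it was 0.67 (adjusted p = 0.0227). The difference between the flanks was not tested. REV545, the left flank fragment that abuts the deleted segment, had a total of 1738 and 1986 CPM in Chic1-14kbD and of 703 to 1120 CPM in the other 6 libraries.

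Near upstream, the left flank had 91.3 and 66.8 CPM in Chic1-14kbD against 150.5 and 119 CPM in Linx-51kb-INV, a log2 fold change of -1.09 ± 0.29 in observed over expected contacts (edgeR adjusted p = 0.00685). Without Linx-51kb-INV replicate 1 it was -0.88 (adjusted p = 0.0611), with library size -0.76 (adjusted p = 0.0605) and with TMM factors -0.062 (adjusted p = 0.858). The right flank had 152 and 78.1 CPM against 309.7 and 216 CPM, which gave -1.53 ± 0.27 (edgeR adjusted p = 0.000425), or -0.50 with TMM factors (adjusted p = 0.121). From Xist to Rlim the right flank had 846 and 489 CPM in Chic1-14kbD against 726 and 828 CPM in Linx-51kb-INV, so 1 library of the deletion lay above both reference libraries. Corrected for distance it changed by -0.48 ± 0.16 (edgeR adjusted p = 0.0209), a call lost without Chic1-14kbD replicate 2 (-0.26, adjusted p = 0.130) or without Linx-51kb-INV replicate 2 (-0.40, adjusted p = 0.111), and with library size it was -0.21 (adjusted p = 0.423). Here the scaling decides the direction: with TMM factors on library size, which make no correction for distance, the right flank changed by 0.11 with Xite and Tsix (adjusted p = 0.543) and by 0.49 from Xist to Rlim (adjusted p = 0.014). The same scaling moved the median log2 fold change of all pairs of windows from 0.18 to -0.17.

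These calls stand against a map on which many features differed between these alleles. Of the 10 regions of the flanks 5 passed, all lower, against 60.0% of all pairs of regions (44.3% lower). Of the 84 windows 10 passed (11.9%), 1 higher and 9 lower, against 40.2% of all pairs of windows (23.3% higher and 16.9% lower), and the share of the members is below the background. Both backgrounds include pairs with the deleted segment, whose counts the deletion itself lowers. With TMM factors 4 windows of the flanks were higher and 13 lower, against 27.4% and 35.2% of all pairs of windows. The median log2 fold change was -0.04 over the windows of the flanks and 0.18 over all pairs of windows.

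Within 100 kb downstream, the window that holds the starts of Tsix, Xist and Jpx, the right flank had 939.7 and 622 CPM in Chic1-14kbD against 1164 and 1081 CPM in Linx-51kb-INV. The log2 fold change was -0.94 ± 0.15 (edgeR adjusted p = 0.000788), and it turned to 0.18 with TMM factors (adjusted p = 0.345). In the first 100 kb upstream it had 89.3 and 44.1 CPM against 188 and 125 CPM, a log2 fold change of -1.67 ± 0.30 (edgeR adjusted p = 0.00163), or -0.54 with TMM factors (adjusted p = 0.141). The windows that hold the starts of Ftx, Zcchc13 and Rlim passed for neither flank in any of the 4 comparisons. For Rlim, an E3 ubiquitin ligase that activates Xist, the right flank had 138 and 146 CPM in Chic1-14kbD and 137 and 160.1 CPM in Linx-51kb-INV.

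**Figure D3:**
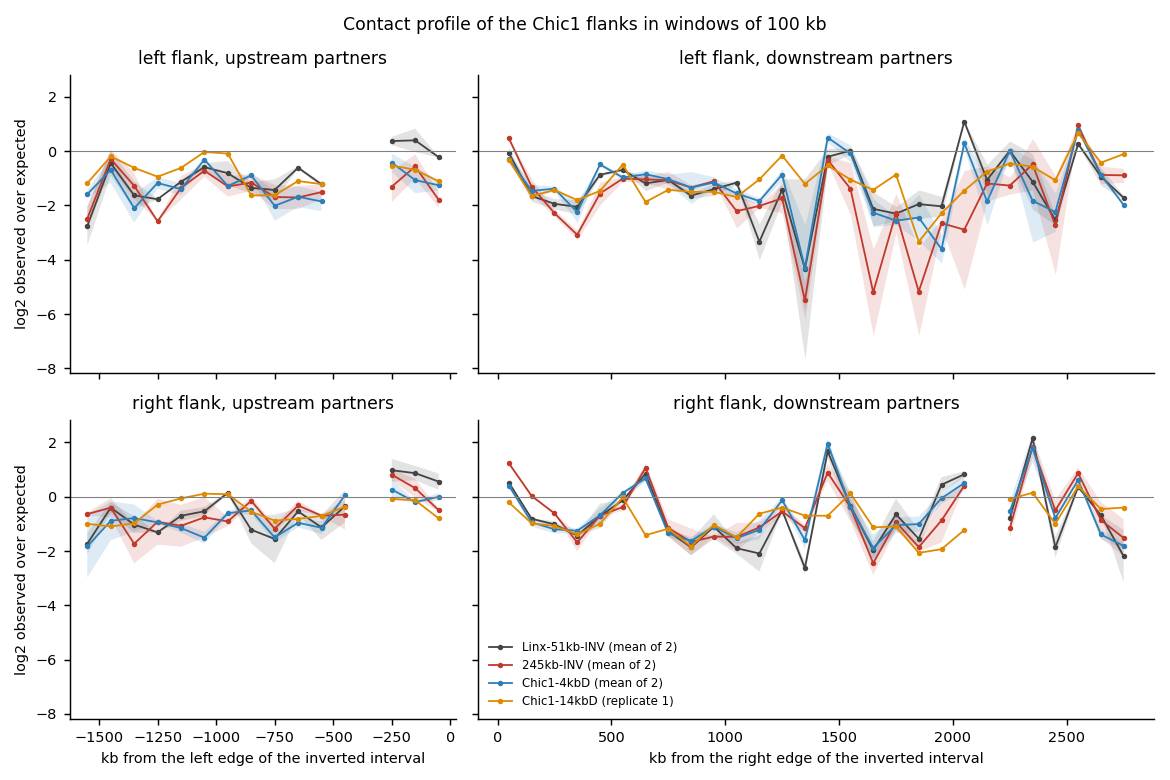
Log2 observed over expected contacts of each flank in windows of 100 kb, against the distance in kb from the left edge (upstream) or the right edge (downstream) of the inverted interval. Lines are means of 2 libraries with their range shaded, except that Chic1-14kbD is drawn from replicate 1 alone because of the depth of replicate 2, and gaps are windows that were not tested. The peaks of the right flank at 600 to 700, 1400 to 1500 and 2300 to 2400 kb downstream are missing from the line of Chic1-14kbD.

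Beyond Rlim the right flank had 502 and 290.4 CPM in Chic1-14kbD and 1489 and 2044 CPM in Linx-51kb-INV, the widest gap in CPM among the 10 regions (log2 fold change -0.98 ± 0.13, edgeR adjusted p = 6.67e-05). Much of it sat in a few fragment pairs. Pairs with over 20 times the expected count in any library were called dominant, and 16 of 3324 member pairs met this (0.481%), against 0.815% of all X-chromosomal pairs kept. In the right flank downstream, 9 of 1348 pairs held 16.4% to 29.6% of the counts in the 6 libraries of the other alleles and 0.676% and 2.21% in Chic1-14kbD. On the whole map dominant pairs held 12.5% to 21.9% in those 6 libraries and 3.87% and 3.5% in Chic1-14kbD, so their share of the counts was lower in Chic1-14kbD on the whole map too. Without dominant pairs, the log2 fold change beyond Rlim was 0.09 (edgeR adjusted p = 0.6). A high count in any library made a pair dominant, so pairs high in the other alleles alone were included, and the low share in Chic1-14kbD and the loss of the fall are in part set by that rule and are given as a description.

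The partners in 3 of the called windows that hold dominant pairs are shown by the HindIII site at their start (capitals), since each stands for a single ligation product. REV793 lies 600 to 700 kb downstream of the interval, FOR1085 in the window that holds the start of Magee2 and FOR1375 in the window that holds the start of Fgf16.
REV793 (X:101280888-101280917): agacaacttgggAAGCTTcaaattcactag
FOR1085 (X:102076159-102076188): tccagtgaggaaAAGCTTtagtccaccttg
FOR1375 (X:102973565-102973594): tagaactaagacAAGCTTccatgtgccaag

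The pair FOR554-REV793 had 2776 and 3386 counts in 245kb-INV, 3827 and 3287 in Linx-51kb-INV, 2461 and 1436 in Chic1-4kbD, and 27 and 0 in Chic1-14kbD. It held 55.7% to 82.1% of the counts of its window in the first 6 libraries. Its window changed by -2.45 ± 0.25 on the log2 scale in Chic1-14kbD against Linx-51kb-INV (edgeR adjusted p = 6.32e-05) and by -0.35 without dominant pairs (adjusted p = 0.366). REV557-FOR1085 had 875 to 3142 counts in those 6 libraries and 0 in both of Chic1-14kbD, and its window changed by -2.70 ± 0.42 (edgeR adjusted p = 0.00079), or -0.19 without dominant pairs (adjusted p = 0.793). REV553-FOR1375 had 1232 to 4555 counts against 160 and 4, and its window went from -2.21 ± 0.42 (edgeR adjusted p = 0.0023) to 0.56 (adjusted p = 0.532). None of these 3 windows passed against Linx-51kb-INV without its dominant pairs. What produced these pairs was not tested.

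**Figure D4:**
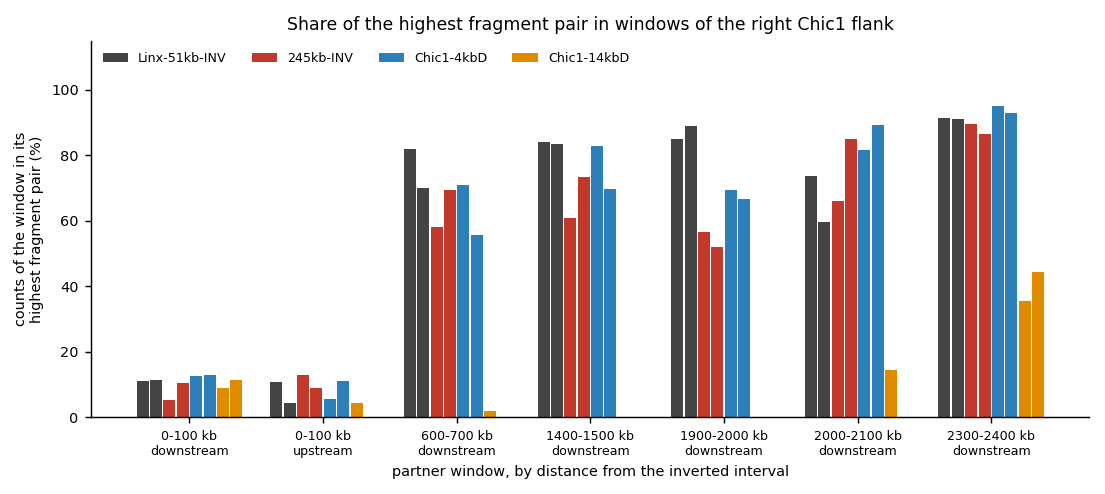
Share of the counts of a window, in percent, that its highest fragment pair took in each library, for windows of the right flank at the given distance from the inverted interval; bars are single libraries, colored by allele. In the 5 windows further than 600 kb downstream this share was 52.1% to 94.9% in the 6 libraries of the other alleles and 0% to 44.4% in Chic1-14kbD, whereas within 100 kb downstream it was 5.34% to 12.9% in all 8. The windows were named for their p and the pairs for their CPM, so the contrast in share is a description of that choice.

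In the opposite direction the left flank was higher in the most distal window, 2700 to 2800 kb downstream, which holds the starts of Tlr13, Pgk1 and Taf9b. It had 8.55 and 10.7 CPM in Chic1-14kbD and 11.2 and 15.4 CPM in Linx-51kb-INV, so it was higher only on the scale corrected for distance (2.15 ± 0.74 on the log2 scale, edgeR adjusted p = 0.0398), and with library size it was -0.49 and with TMM factors 0.27 (adjusted p = 0.762). The call was also lost when any of 5 single libraries was left out.

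The larger deletion was also set against the smaller one, as Chic1-14kbD against Chic1-4kbD. These alleles differ in the third CTCF site, but also in the length deleted, the title prefix and the number of clones, which cannot be told apart here. Contacts of the right flank with Xite and Tsix fell, with 695 and 477 CPM against 902 and 892 CPM and a log2 fold change of -0.93 ± 0.16 (SE, n = 2 libraries per allele, edgeR adjusted p = 0.00052). The call passed without any single library (-1.22 to -0.70) and became 0.03 with TMM factors. Near upstream the right flank changed by -0.76 ± 0.26 (edgeR adjusted p = 0.0347), which did not pass without Chic1-14kbD replicate 2 (-0.49, adjusted p = 0.193), Chic1-4kbD replicate 1 (-0.87, adjusted p = 0.0619) or Chic1-4kbD replicate 2 (-0.65, adjusted p = 0.157). The left flank passed with none of its 5 regions, its values running from -0.28 to 0.31. This rests on the correction for distance. With TMM factors 4 of the 5 passed, at 1.48 with Xite and Tsix (adjusted p = 0.000115), 0.57 from Xist to Rlim (adjusted p = 0.0078), 0.96 near upstream (adjusted p = 0.0138) and -0.39 beyond Rlim (adjusted p = 0.0359). At an unadjusted p under 0.05 edgeR with these factors counted 6 of the 10 regions of the flanks and 51 of all 70 pairs of regions. The median log2 fold change of all pairs of regions was then 0.29, so changes with TMM factors were not particular to the left flank. With library size Xite and Tsix gave 0.78 (adjusted p = 0.0136) and beyond Rlim -1.05 (adjusted p = 0.00104). Beyond Rlim the right flank had 502 and 290.4 CPM against 1543 and 1453 CPM and changed by -0.90 ± 0.13 (edgeR adjusted p = 0.000156), or by -0.12 without dominant pairs (adjusted p = 0.445). In all, 3 of 10 regions passed, against 45.7% of all pairs of regions, and 10 of 84 windows (2 higher, 8 lower), against 29.7% of all pairs of windows (15.9% higher and 13.8% lower). With TMM factors 6 windows were higher and 14 lower, against 26.2% and 32.9%. The count of 10 fell without either Chic1-4kbD library or without Chic1-14kbD replicate 2, fits that leave a single library in that allele.

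Among those windows were again those of the dominant pairs, at -2.26 for REV793, -2.98 for FOR1085 and -1.95 for FOR1375, the last of which did not pass without Chic1-4kbD replicate 1 (-1.34, adjusted p = 0.063). Without dominant pairs the window of REV793 still passed, at -0.83 (adjusted p = 0.0479), whereas that of FOR1085 did not (-0.96, adjusted p = 0.202) and that of FOR1375 turned to 1.42 (adjusted p = 0.127). The window at 2000 to 2100 kb downstream, whose highest pair had 293 to 719 counts in the 6 libraries of the other alleles and 17 and 0 in Chic1-14kbD, also changed by -1.95 and was lost without that same library (-1.62, adjusted p = 0.0847) and without dominant pairs (0.53, adjusted p = 0.673). The 2 higher windows were the left flank at 2700 to 2800 kb downstream (2.42 ± 0.75, edgeR adjusted p = 0.0337) and the right flank at 1000 to 1100 kb upstream (1.77 ± 0.49, edgeR adjusted p = 0.0221), which had 52.5 and 45.3 CPM in Chic1-14kbD and 32.3 and 26.3 CPM in Chic1-4kbD. Both were lost without Chic1-14kbD replicate 2 (1.88 and 1.60) and without either library of Chic1-4kbD, and the first also without Linx-51kb-INV replicate 1. With library size they were 0.0025 (adjusted p = 0.997) and 0.75 (adjusted p = 0.243), and with TMM factors the first was 0.67 (adjusted p = 0.474). The window within 100 kb downstream of the right flank also passed, at -0.83 ± 0.14 (edgeR adjusted p = 0.00269), and turned to 0.13 with TMM factors (adjusted p = 0.53). Both flanks together changed by -0.43 ± 0.08 downstream (adjusted p = 0.00118) and by 0.04 ± 0.14 upstream (adjusted p = 0.78) in edgeR, and for Chic1-14kbD against Linx-51kb-INV these values were -0.48 ± 0.08 (adjusted p = 0.000425) and -0.32 ± 0.14 (adjusted p = 0.0722). Without dominant pairs the downstream values were -0.19 (adjusted p = 0.0462) and -0.13 (adjusted p = 0.136).

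The 245kb-INV allele moves Chic1 toward the upstream edge and turns its direction, and it was again compared with Linx-51kb-INV. In counts, contacts of the right flank were more frequent on the side it now lies closer to: the flank, next to the upstream edge in this allele, had 503 and 421 CPM near upstream against 309.7 and 216 CPM, and 523 and 558 CPM with Xite and Tsix against 911 and 869.5 CPM. Relative to the new distances both differences had the opposite sign. Near upstream the right flank changed by -1.01 ± 0.26 on the log2 scale (SE, n = 2 libraries per allele, edgeR adjusted p = 0.0114), and with Xite and Tsix by 1.04 ± 0.16 (edgeR adjusted p = 0.000648). With library size alone these values were 0.81 (adjusted p = 0.0659) and -0.72 (adjusted p = 0.0221).

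The left flank behaved likewise after correction for distance, but its counts moved less. It had 111 and 105 CPM near upstream against 150.5 and 119 CPM (log2 fold change -1.38 ± 0.29, edgeR adjusted p = 0.00378) and 270.1 and 235 CPM with Xite and Tsix against 241 and 295 CPM (0.71 ± 0.19, edgeR adjusted p = 0.0137). With library size these were -0.31 (adjusted p = 0.486) and -0.085 (adjusted p = 0.804). The upstream calls were lost without 245kb-INV replicate 2 (-0.88, adjusted p = 0.0603) or Linx-51kb-INV replicate 1 (-0.70, adjusted p = 0.149) in the right flank and held in the left flank. With Xite and Tsix the right flank passed without any single library (0.97 to 1.10), whereas the left flank did not pass without 245kb-INV replicate 1 (0.62, adjusted p = 0.0705) or Linx-51kb-INV replicate 1 (0.56, adjusted p = 0.149). From Xist to Rlim the right flank fell short of the threshold (0.41 ± 0.16, edgeR adjusted p = 0.0655). It passed in the fit without dominant pairs (0.41, adjusted p = 0.0196), although its counts were the same in both fits. With library size it was -0.15 (adjusted p = 0.632) and with TMM factors 0.10 (adjusted p = 0.695). Of the 10 regions 4 passed, against 34.3% of all pairs of regions, and of the 84 windows 2 passed (2.38%), against 2.89% of all pairs of windows. The higher one (1.65% of all) was the right flank within 100 kb downstream (0.71 ± 0.14, edgeR adjusted p = 0.0304), and the lower one (1.24% of all) was the left flank within 100 kb upstream (-1.54 ± 0.34, edgeR adjusted p = 0.043). The first turned to -0.59 with library size (adjusted p = 0.149), -0.35 with TMM factors (adjusted p = 0.211) and -0.79 in reference coordinates (adjusted p = 0.0224). It was lost with only the 2 alleles compared (0.71, adjusted p = 0.0526) and without any single library of 245kb-INV, Linx-51kb-INV or Chic1-4kbD (0.66 to 0.77), and the second without 245kb-INV replicate 1 or any of the libraries of Linx-51kb-INV and Chic1-4kbD (-1.55 to -1.28). The second was also lost with library size (-0.28, adjusted p = 0.702), TMM factors (-0.042, adjusted p = 0.947), reference coordinates (-0.52, adjusted p = 0.455) and only the 2 alleles compared (-1.54, adjusted p = 0.0915).

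Corrected for distance, values near upstream were lower in all 3 alleles set against Linx-51kb-INV, though in CPM the right flank of 245kb-INV was higher there, with the right flank of Chic1-4kbD short of the threshold, and all 3 comparisons share its 2 libraries. In the left flank the log2 observed over expected there was 0.22 and -0.16 in Linx-51kb-INV and -1.49 to -0.88 in the other 6 libraries. In the right flank it was 0.96 and 0.39 against -1.22 to 0.04. Whether Linx-51kb-INV is high there or the other alleles are low cannot be told without a wild-type library, and the cause was not tested.

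Taken by library, the balance of downstream to upstream contacts of both flanks (log2 ratio of observed over expected) was 0.37 ± 0.14 (SD, n = 2) in 245kb-INV and 0.23 ± 0.25 (SD, n = 6) in the other alleles, a difference of 0.13 (two-sided exact permutation test, p = 0.536). The right flank exceeded the left flank upstream by 0.95 ± 0.06 (SD, n = 2) in 245kb-INV and by 0.34 ± 0.31 (SD, n = 6) in the other alleles, with single values of the latter from -0.21 to 0.74. Both libraries of 245kb-INV lay above all 6 others, yet the two-sided exact permutation test gave p = 0.0714, or 0.214 adjusted over the 3 tests of this kind. Downstream the corresponding values were 0.92 ± 0.03 and 0.51 ± 0.49, with p = 0.286 in the same exact test. With 2 libraries against 6 the smallest p these tests allow is 0.0357.

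The annotated genes whose contacts with the same outside windows varied most like those of Chic1 over the 8 libraries were Tsix (Pearson r = 0.22 over 42 windows), Magt1 (r = 0.16 over 41 windows) and Tsx (r = 0.15 over 42 windows). These are weak correlations, given as a description, over windows that share libraries, depth and decay.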

How the data were processed

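After trimming, the authors mapped reads with Bowtie2, through their pipeline 5C-Pro, onto the possible primer pairs built in silico, and deposited raw counts per primer pair. The version of Bowtie2 is not given in the sources used here. Positions are in mm9 and genes from GENCODE vM1 of that build. Their later steps (primer removal, pooling, binning) are not part of these counts.

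Primers with a summed count of 0.1 to 10 times the median of their type were kept (503 of 511 forward, 514 of 528 reverse). Expected counts came from each library's distance decay in 40 bins, at positions corrected for the inversion or deletion; log2 ratios used a pseudocount of 0.5. The edges of the Chic1-4kbD deletion and of the Linx-51kb-INV inversion were read by eye from a published drawing. Summed counts entered the quasi-likelihood test of edgeR 4.0.16 (glmQLFit, glmQLFTest; R 4.3.3), whose offset was the log expected count. All 8 libraries shared a fit and so an estimate of the spread. Pairs of 100 kb windows needed a mean count of at least 50. P-values were adjusted by Benjamini-Hochberg over all 70 pairs of regions or 1211 pairs of windows, with a threshold of 0.05. Regions named were set by position, windows by the smallest p (up to 5 per direction) and by the starts of Tsix, Xist, Jpx, Ftx, Zcchc13 and Rlim (1 further gene is not reported here), and fragment pairs by the highest CPM. Members, regions and comparisons were chosen with earlier results of these data known. The steps were tested on simulated counts. Alternatives included library size, TMM, reference coordinates, DESeq2 1.42.0, other filters and leaving out each library.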

Additional observations from a re-analysis of the deposited data

How the results depend on the processing

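Precision is limited by depth (1614282 counts in Chic1-14kbD replicate 2; 28.7% to 78.7% of member pairs without a count) and by 2 libraries per allele. No paired analysis was possible because the labels give no replicate numbers that pair libraries across alleles. One alternative, expected counts scaled by the totals of the partner primers, was chosen after seeing the data. Unless a value shows it, the cause of a change was not tested.

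Values are log2 fold changes of both flanks together. Upstream, Chic1-4kbD against Linx-51kb-INV (-0.36) passed without dominant pairs (-0.36) and with only the 2 alleles compared (-0.36), and leaving out 1 library gave -0.45 to -0.27; Chic1-14kbD against Linx-51kb-INV (-0.32) passed with library size (-0.92), the stricter primer filter (-0.39), no dominant pairs (-0.36) and partner scaling (-0.54), with -0.56 to -0.13 without 1 library. Upstream, 245kb-INV against Linx-51kb-INV turned to 0.10 with library size, 0.34 with TMM and 0.33 in reference coordinates, and Chic1-14kbD against Chic1-4kbD to -0.49 with library size, -0.014 with the stricter filter and -0.15 with partner scaling (-0.19 to 0.24 without 1 library). Downstream, Chic1-4kbD against Linx-51kb-INV turned to 0.00058 with TMM and 0.051 without dominant pairs (-0.11 to 0.013 without 1 library). Chic1-14kbD no longer passed with TMM (-0.033 against either allele) or, against Linx-51kb-INV, without dominant pairs (-0.13). 245kb-INV turned to -0.57 with library size, -0.31 with TMM and -0.46 in reference coordinates (-0.038 to 0.088 without 1 library).

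Windows called moved from 10 to 22 with library size, 17 with TMM and 16 with DESeq2 for Chic1-14kbD against Linx-51kb-INV, and from 10 to 18 and 20 with the first 2 of these against Chic1-4kbD (3 to 12 without 1 library). For 245kb-INV they moved from 2 to 0 with library size or only the 2 alleles, 1 with TMM, reference coordinates or 50 kb windows, and 4 without dominant pairs (0 to 3 without 1 library, with 0 or 1 when 245kb-INV replicate 1 or any library of Linx-51kb-INV or Chic1-4kbD was left out). The balance of 245kb-INV became -0.85 with library size and in reference coordinates, and the excess of the right flank upstream was 0.89 with library size, 0.88 in reference coordinates and 0.67 with partner scaling, each at the smallest unadjusted p the exact test allows, 0.0357, and not adjusted over the 3 tests (0.50 to 0.69 without 1 library).

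Single regions that turned were for 245kb-INV the right flank near upstream (0.81 with library size, 1.03 with TMM, 0.65 in reference coordinates), the left flank with Xite and Tsix (-0.085 with library size, -0.30 in reference coordinates) and the right flank there (-0.72 with library size, -0.48 with TMM, -0.91 in reference coordinates). For Chic1-14kbD against Chic1-4kbD the right flank turned with TMM to 0.10 near upstream and to 0.033 with Xite and Tsix, and against Linx-51kb-INV to 0.11 with Xite and Tsix and 0.49 from Xist to Rlim (0.086 beyond Rlim without dominant pairs). The left flank's window at 2700 to 2800 kb turned to -0.49 with library size. The right flank's window within 100 kb downstream turned with TMM to 0.18 and 0.13 for Chic1-14kbD, and for 245kb-INV to -0.59 with library size, -0.35 with TMM and -0.79 in reference coordinates. Without dominant pairs, windows of the right flank against Chic1-4kbD turned to 1.42 (2300 to 2400 kb) and 0.53 (2000 to 2100 kb), and the first to 0.56 against Linx-51kb-INV.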
